A study of Mus musculus with 12 samples.

Results

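The genes described here are 10 transcripts used to tell apart the inhibitory interneurons of the cerebral cortex: Pvalb, Sst, Vip, Npy, Cck, Lamp5, Ndnf, Calb2, Reln and Cort. They were taken by name, as the rows of the deposited expression table whose gene name equals a listed symbol, and the rows of a name were summed. The 10 members are 10 of the 55678 gene names in that table, and all 10 passed the filter on low values (at least 1 TPM in at least 3 libraries). TPM is an abundance corrected for transcript length and scaled so that every library sums to 1000000, so levels of different genes can be set side by side. RNA came from the medial prefrontal cortex of mice aged 9 to 10 weeks, and the 12 libraries fell into 4 groups of 3. B6 stands below for the inbred strain C57BL/6JmsSlc, and BALB/c is the inbred strain BALB/cCrSlc. Within each strain mice had either been handled without restraint (control) or exposed to chronic restraint stress (CRS, 6 h a day on 21 consecutive days). The B6 control libraries are numbered 2, 3 and 9, the B6 CRS libraries 12, 13 and 14, the BALB/c control libraries 5, 9 and 10, and the BALB/c CRS libraries 12, 13 and 15. All mice had been through behavioural testing before the tissue was punched out (1.5 mm wide), so no group is free of it. Sex, litter, hour of collection and sequencing batch are not in the labels. Nor do the labels say in so many words that each number is a separate mouse, so the p-values measure the spread between these libraries.

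Cortical interneurons use GABA and fall into a few large classes. Cells born in the medial ganglionic eminence of the embryo make parvalbumin (Pvalb) or somatostatin (Sst), and cells born mainly in the caudal ganglionic eminence make vasoactive intestinal peptide (Vip) or belong to the Lamp5 class, which includes neurogliaform cells with Ndnf and Reln. None of the 10 transcripts belongs to interneurons of the cortex alone: Cck is also made by many cortical pyramidal neurons, and Sst, Npy, Pvalb and Calb2 also mark interneurons of the striatum. In RNA from a whole tissue punch, fewer cells of a type and less RNA per cell cannot be told apart.

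The punches differed in what else they held, and the difference ran with strain. The summed level of 12 markers of cortical excitatory neurons was 618 to 1455 TPM in B6 controls, 568 to 1088 in B6 CRS, 1090 to 1236 in BALB/c controls and 1079 to 1266 in BALB/c CRS libraries, so cortical tissue was present in each. The summed level of 14 markers of striatal projection neurons, which lie beneath the cortex, was 214 to 2164 TPM in B6 controls, 667 to 1714 in B6 CRS, 110 to 306 in BALB/c controls and 123 to 155 in BALB/c CRS libraries. No striatal marker was at 0 in all libraries of a group. In 3 libraries, B6 control 2, B6 CRS 12 and B6 CRS 13, the striatal sum was above the excitatory sum of the same library. The summed level of 10 myelin genes was 2598 to 9961, 2815 to 8072, 491 to 3168 and 556 to 1493 TPM in the same order of groups. All 14 striatal and all 10 myelin markers were called lower in BALB/c than in B6 over both treatments. Libraries held 14805 to 15542 genes at 1 TPM or more, and mitochondrial transcripts took 17.4 to 23.9% of the total. BALB/c CRS 12 stood apart in nuclear ribosomal RNA, at 3.97% of the total against 0.0307 to 0.169% in the other 11 libraries.

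The promoters of 4 peptide members are shown: those of Cck, Vip and cortistatin (Cort), the members called between strains below, and that of somatostatin, the close relative of cortistatin, for comparison. Each sequence is the 120 bases before the RefSeq start site, 5′ to 3′ on the gene's own strand, from the RefSeq promoter table (GRCm38.p6). Capitals mark the cAMP response element, TGACGTCA, the site through which CREB acts on the somatostatin gene, or its core TGACG, read as CGTCA on the other strand. The windows are chr16:23890845-23890964 (minus strand) for Sst, chr4:149126764-149126883 (minus) for Cort, chr10:5639098-5639217 (plus) for Vip and chr9:121495695-121495814 (minus) for Cck.
Sst: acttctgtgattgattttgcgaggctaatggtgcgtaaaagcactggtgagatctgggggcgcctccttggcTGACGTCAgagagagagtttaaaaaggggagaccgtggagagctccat
Cort: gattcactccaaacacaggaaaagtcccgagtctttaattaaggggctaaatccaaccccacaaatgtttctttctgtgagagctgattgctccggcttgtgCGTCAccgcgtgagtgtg
Vip: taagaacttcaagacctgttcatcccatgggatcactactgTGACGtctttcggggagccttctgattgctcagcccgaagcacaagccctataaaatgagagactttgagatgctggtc
Cck: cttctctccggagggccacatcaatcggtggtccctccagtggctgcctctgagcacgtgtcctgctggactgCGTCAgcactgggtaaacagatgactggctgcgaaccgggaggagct

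In the 250 bases before the start, searched on both strands, the full element was present in 1 of the 8 members with an entry (Sst, beginning 48 bases before the start) and in 1.55% of all 32851 windows of that length. The core, which the full element contains, was present in 4 of those 8 members (Sst, Cort, Vip and Cck) and in 17.8% of all windows. The units differ, since members were counted by gene and the shares by window. Pvalb and Lamp5 had more than 1 window each, all without the core. A match is a run of letters and not a measured binding site. Ndnf and Calb2 had no entry. In the GENCODE M21 annotation of GRCm38 the members lie on 9 chromosomes: Sst at chr16:23889573-23890958, Cort at chr4:149125034-149126763, Vip at chr10:5639218-5647617, Cck at chr9:121489824-121495694, Npy at chr6:49822710-49829507, Ndnf at chr6:65671590-65712326, Pvalb at chr15:78191114-78206400, Calb2 at chr8:110137502-110168210, Lamp5 at chr2:136052239-136069917 and Reln at chr5:21884454-22344702. Reln alone overlaps other annotated genes, 7 of them, each at 0.164 TPM or less in every library.

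The 10 members spanned a wide range of abundance. Averaged over the 12 libraries, Cck, the precursor of cholecystokinin, stood highest at 858 TPM, followed by Sst at 511, Npy (neuropeptide Y) at 173, Lamp5 (a lysosome-associated membrane protein) at 89.4, Vip at 36.6, Pvalb at 29.1, Calb2 (the calcium-binding protein calretinin) at 18.0, Reln (the secreted glycoprotein reelin) at 17.7, Cort at 17.1 and Ndnf (a secreted neuron-derived factor) at 7.93. The steps from Sst to Npy, from Npy to Lamp5 and from Lamp5 to Vip held within 12 of 12 libraries. Cck was above Sst in 9 of 12, Vip above Pvalb in 9 of 12, Pvalb above Calb2 in 9 of 12 and Cort above Ndnf in 11 of 12. Calb2, Reln and Cort were not separated, since Calb2 was above Reln in 6 of 12 libraries and Reln above Cort in 8 of 12. The spread between libraries differed too: the highest value was 11.8 times the lowest for Ndnf, 4.88 times for Cck and 4.80 times for Pvalb, but 1.71 times for Sst and 1.52 times for Npy.

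**Figure D1:**
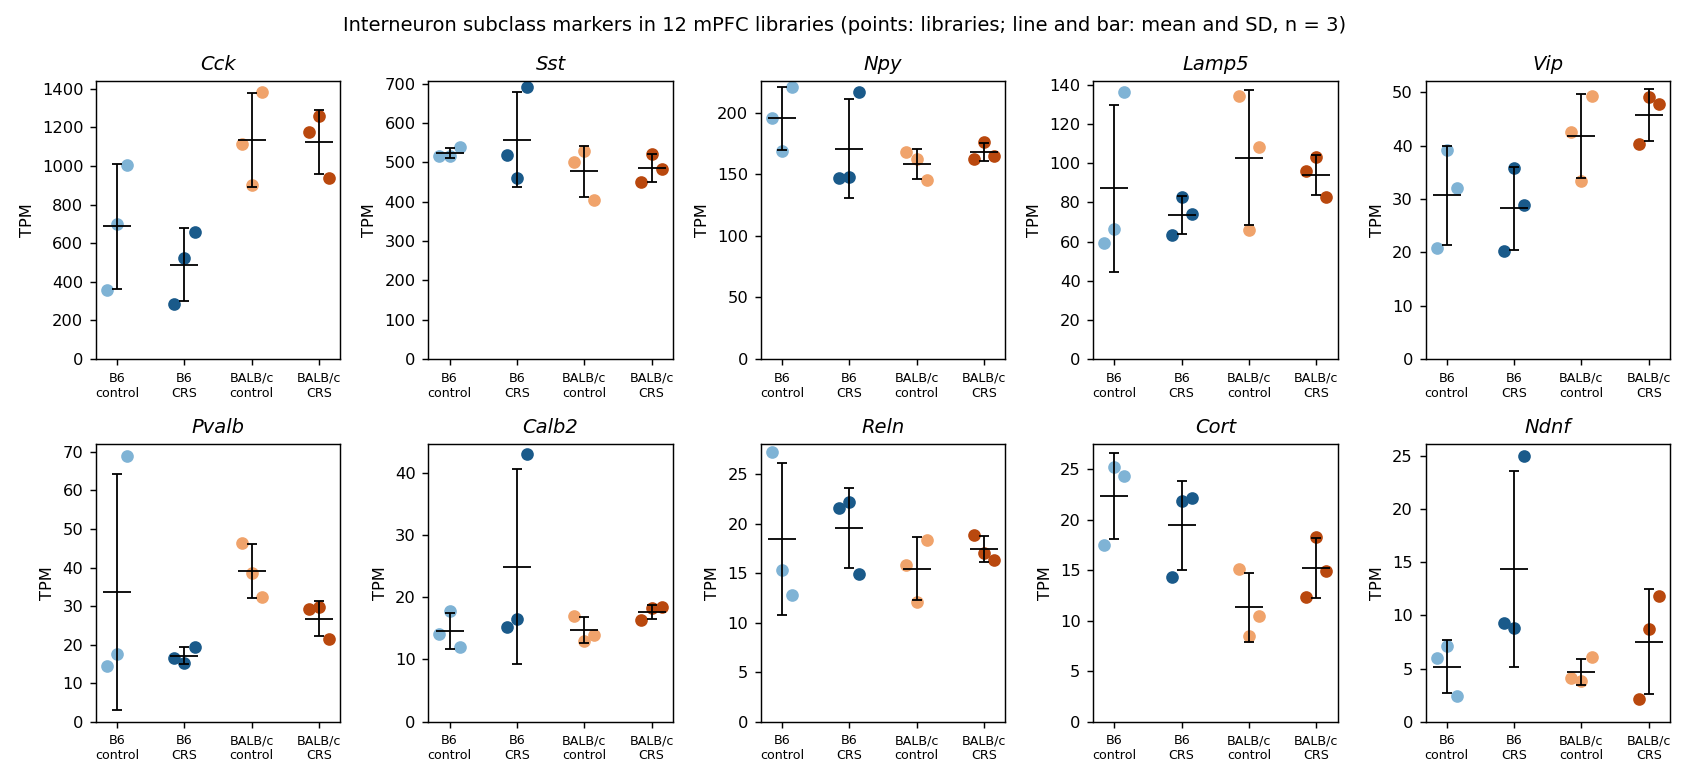
Level of each of the 10 interneuron markers in TPM (vertical axis) in the 4 groups (horizontal axis); each point is a library, each line a mean and each bar the SD of 3. Cck is higher in most BALB/c libraries, Cort is lower in BALB/c controls than in every B6 control, and single libraries stand apart for Pvalb (B6 control 9, 68.8 TPM) and for Ndnf and Calb2 (B6 CRS 14, 25.0 and 43.0 TPM).

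Between the strains, averaged over treatments, 3 of the 10 members were called by limma at an adjusted p under 0.05: Cck and Vip were higher in BALB/c and Cort was lower. Across all 16423 genes tested, 18.4% were called, 4.05% higher and 14.3% lower, against 2 members higher and 1 lower. With median-of-ratios scaling the split over all genes was 1476 higher and 1712 lower in place of 665 higher and 2356 lower, and in controls that scaling moved the median of all genes from -0.10 to 0.01 on the log2 scale. The same 3 members were called under it. The median log2 difference was -0.15 over the 10 members and -0.08 over all genes. None of the 10 separated all 6 BALB/c from all 6 B6 libraries, which 8.95% of all genes did. Differences below are in log2(TPM + 1), where the added 1 makes changes of weakly expressed genes look smaller, and positive values are higher in BALB/c.

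Cck, whose peptide acts on neighbouring neurons through the receptors Cckar and Cckbr, was about 2-fold more abundant in BALB/c. Its level was 356, 699 and 1006 TPM in B6 controls and 284, 526 and 657 TPM in B6 CRS libraries. In BALB/c controls it was 1113, 899 and 1385 TPM and in BALB/c CRS libraries 1177, 1257 and 939 TPM. Only B6 control 9 reached the BALB/c range. Mean Cck levels (± SD, n = 3 each) were 687 ± 325 TPM in B6 controls, 489 ± 190 in B6 CRS, 1132 ± 244 in BALB/c controls and 1124 ± 166 in BALB/c CRS. The difference was 1.05 on the log2 scale (SE 0.25, 95% interval 0.49 to 1.60, adjusted p = 0.0146 by limma), or 2.07-fold. Among CRS libraries all 3 of BALB/c lay above all 3 of B6 (log2 difference 1.27, SE 0.36, limma adjusted p = 0.0515), and with median-of-ratios scaling this contrast was called (1.34, 0.0396). Among controls the groups overlapped (0.82, SE 0.36, limma adjusted p = 0.245).

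Vip, the peptide of interneurons that mainly inhibit other interneurons, was also higher in BALB/c, by 1.50-fold. Vip stood at 20.8, 39.1 and 32.1 TPM in B6 controls and at 20.2, 35.7 and 28.8 TPM in B6 CRS libraries. Its values were 42.6, 33.5 and 49.3 TPM in BALB/c controls and 40.2, 49.2 and 47.9 TPM in BALB/c CRS libraries. BALB/c control 9 lay within the B6 range, and the other 5 BALB/c libraries were above all 6 of B6. The log2 difference was 0.58 (SE 0.17, 95% interval 0.21 to 0.95, limma adjusted p = 0.0332). The Vip call was lost in 7 of the 12 fits that left out a single library: B6 control 2, B6 CRS 12 or 14, BALB/c control 5 or 10, or BALB/c CRS 13 or 15. In those 7 the difference was 0.46 to 0.60 and the limma adjusted p 0.051 to 0.086, and with no filter on low values it was lost too (limma adjusted p = 0.073).

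Cck and Vip moved with the composition of the punch. Within B6, Cck was lowest in B6 CRS 12 and B6 control 2 (284 and 356 TPM), the libraries with the highest striatal score, the mean log2(TPM + 1) of the 14 striatal markers (6.25 and 6.47), and highest in B6 control 9, where that score was lowest for the strain (2.72). Vip was lowest in the same pair of libraries. The striatal score was 3.94 and above in 5 of 6 B6 libraries and 3.66 or below in all 6 of BALB/c. With the score as a covariate in the model, the strain difference was 0.00 for Cck (limma adjusted p = 0.996) and 0.08 for Vip (0.881). With a score of the 10 myelin genes instead, it was 0.29 for Cck (0.874) and 0.35 for Vip (0.796). Without the 3 libraries of highest striatal score it was 0.59 for Cck and 0.43 for Vip. That fit leaves B6 CRS 14 alone in its group and takes it to vary like the other groups, here and below. Strain and striatal score ran together over these libraries, and their parts in the Cck and Vip differences cannot be told apart.

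**Figure D2:**
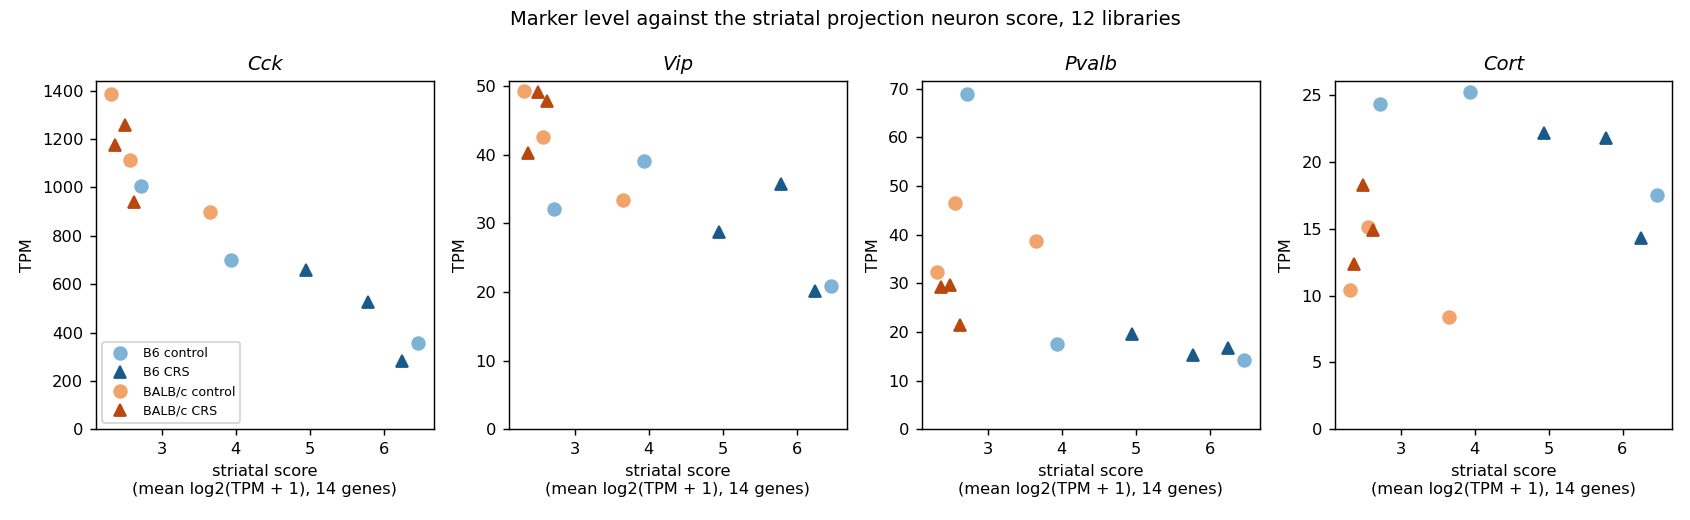
Levels of Cck, Vip, Pvalb and Cort in TPM (vertical axes) against the striatal score, the mean log2(TPM + 1) of 14 striatal projection neuron markers (horizontal axes), 1 point per library, coloured by group. Cck and Vip fall from left to right over the 12 libraries, while all 6 BALB/c points for Cort (8.43 to 18.3 TPM) lie below 4 of the 6 B6 points.

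Cort was the 1 called member that was lower in BALB/c. Cortistatin is a peptide of a subset of cortical interneurons, resembles somatostatin and binds the somatostatin receptors. Its level was 17.5, 25.2 and 24.3 TPM in B6 controls and 14.3, 21.8 and 22.2 TPM in B6 CRS libraries, against 15.1, 8.43 and 10.4 TPM in BALB/c controls and 12.4, 18.3 and 14.9 TPM in BALB/c CRS libraries. Every BALB/c control was below every B6 control, and the CRS groups overlapped. In controls the log2 difference was -0.94 (SE 0.23, limma adjusted p = 0.0391), which made it 1.92-fold lower in BALB/c and the only 1 of 10 members called in that contrast, where 4.73% of all genes were called and 3.37% were called lower. Averaged over treatments it was -0.63 (SE 0.16, 95% interval -0.99 to -0.27, limma adjusted p = 0.0201).

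The averaged Cort difference was -1.05 (limma adjusted p = 0.031) with the striatal score as a covariate. With the myelin score it was -0.77 and not called (limma adjusted p = 0.294). Without the 3 libraries of highest striatal score, which leaves B6 CRS 14 alone in its group, it was -0.82. Within groups, Cort correlated at -0.60 with the striatal score and at 0.83 with a score of the 12 excitatory cortical markers. Over all 12 libraries these correlations were 0.27 and 0.04. Strain and striatal score ran together here too, and their parts in the Cort difference cannot be told apart. The averaged call rested on few libraries, since it was lost without BALB/c control 10 (-0.61, limma adjusted p = 0.0508) or BALB/c CRS 12 (-0.57, 0.0527), the library high in ribosomal RNA. The call in controls was lost without B6 control 3 (-0.85, limma adjusted p = 0.133), B6 control 9 (-0.87, 0.0663), BALB/c control 9 (-0.76, 0.130), BALB/c control 10 (-0.90, 0.140) or BALB/c CRS 15 (-0.94, 0.0573).

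Cenps, which encodes a centromere protein, lies 358 bases from Cort on the same strand and differed in the opposite direction. It was looked at because the nearest measured genes on both sides of all 10 members were computed, and it is named here after its values were seen. Cenps measured 3.98, 4.29 and 6.42 TPM in B6 controls, 3.18, 3.85 and 5.58 in B6 CRS, 8.91, 10.9 and 13.0 in BALB/c controls and 10.2, 11.3 and 10.5 TPM in BALB/c CRS libraries, with no overlap between strains. The log2 difference was 1.11 (SE 0.14, limma adjusted p = 0.000267). It was 0.87 without the 3 libraries of highest striatal score. With the striatal score as a covariate it was 0.73, no longer called (limma adjusted p = 0.085). Cort has 1 row in the table and 1 transcript in the annotation. How reads that fall between the neighbours were assigned is not given in the sources used here.

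Somatostatin itself, the peptide of interneurons that contact pyramidal cell dendrites, differed little. Sst stood at 517, 515 and 538 TPM in B6 controls and 519, 461 and 692 TPM in B6 CRS. The BALB/c values were 499.6, 529 and 404 TPM in controls and 451, 522 and 483 TPM under CRS. All 4 groups overlapped. The log2 strain difference was -0.16 (SE 0.10, 95% interval -0.38 to 0.06, limma adjusted p = 0.309). Npy, which is made by many Sst cells and by neurogliaform cells, measured 196, 169 and 221 TPM in B6 controls, 147, 148 and 217 in B6 CRS, 168, 162 and 145 in BALB/c controls and 163, 177 and 165 TPM in BALB/c CRS libraries. All BALB/c controls lay just below all B6 controls, but that contrast was not called (log2 -0.29, limma adjusted p = 0.319). Npy and Cort were the 2 of 10 members whose control groups did not overlap, both lower in BALB/c, as were 18.7% of all genes. Averaged over treatments, Npy had a log2 difference of -0.15 (SE 0.11, 95% interval -0.38 to 0.08, limma adjusted p = 0.375).

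Pvalb, the calcium-binding protein of fast-spiking basket and chandelier cells, turned on a single library. It stood at 14.3, 17.6 and 68.8 TPM in B6 controls and 16.6, 15.3 and 19.5 TPM in B6 CRS libraries. The BALB/c values were 46.4, 38.7 and 32.3 TPM in controls and 29.2, 29.7 and 21.5 TPM under CRS. The other 5 B6 libraries all lay below all 6 BALB/c libraries, and B6 control 9 lay above them. The averaged log2 difference was 0.58 (SE 0.30, 95% interval -0.08 to 1.24, limma adjusted p = 0.212). Without B6 control 9 it was 0.92 and called (limma adjusted p = 0.00051), and in controls it was 1.24 (0.0026) in place of 0.55 (0.54). The contrast among CRS libraries, 0.61, was then called too (0.0399 in place of 0.428). B6 control 9 also had the lowest striatal sum of the B6 libraries (214 TPM) and the highest excitatory sum of all 12 (1455 TPM). With the striatal score as a covariate the averaged Pvalb difference was -0.41.

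Lamp5, Ndnf, Calb2 and Reln were not called between strains. Lamp5 measured 59.1, 66.5 and 136 TPM in B6 controls, 63.3, 82.8 and 74.3 in B6 CRS, 134, 66.1 and 108 in BALB/c controls and 96.3, 103 and 83.0 TPM in BALB/c CRS libraries. It was highest in B6 control 9, as Pvalb was, and had a log2 difference of 0.32 (SE 0.21, limma adjusted p = 0.333). Without B6 control 9 Lamp5 was called (0.50, limma adjusted p = 0.043). Reln, which in the adult cortex is made by interneurons of several classes, measured 27.3, 15.3 and 12.8 TPM in B6 controls, 21.6, 22.2 and 14.9 in B6 CRS, 15.9, 12.1 and 18.4 in BALB/c controls and 18.9, 17.1 and 16.4 TPM in BALB/c CRS libraries. Its groups overlapped throughout (log2 -0.17, SE 0.17, limma adjusted p = 0.552).

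Calb2, a marker of many Vip cells, measured 14.1, 17.7 and 12.0 TPM in B6 controls, 15.2, 16.6 and 43.0 in B6 CRS, 17.0, 13.0 and 13.9 in BALB/c controls and 16.3, 18.2 and 18.4 TPM in BALB/c CRS libraries. The 11 libraries other than B6 CRS 14 kept to 12.0 to 18.4 TPM. Its log2 strain difference was -0.15 (SE 0.21, limma adjusted p = 0.667). Without the 3 libraries of highest striatal score, which leaves B6 CRS 14 alone in its group and takes it to vary like the other groups, it was -0.62 and called (limma adjusted p = 0.036). Ndnf was the lowest and most variable member, at 6.00, 7.11 and 2.38 TPM in B6 controls, 9.29, 8.85 and 25.0 in B6 CRS, 4.10, 3.80 and 6.09 in BALB/c controls and 2.12, 8.70 and 11.8 TPM in BALB/c CRS libraries. B6 CRS 14 was again the highest. The log2 strain difference was -0.49 (SE 0.37, limma adjusted p = 0.399).

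Among CRS libraries alone, the BALB/c and B6 groups did not overlap for 4 of 10 members, Cck, Vip, Pvalb and Lamp5, all higher in BALB/c. Over all genes 9.29% were likewise higher without overlap. None of the 10 was called by limma, against 7.7% of all genes. At an unadjusted p under 0.05 there were 2 of 10, Cck and Vip, against 23.8% of all genes. The B6 CRS group had striatal scores from 4.94 to 6.25 and the BALB/c CRS group from 2.37 to 2.63, so this was the contrast in which strain and striatal markers were furthest apart.

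**Figure D3:**
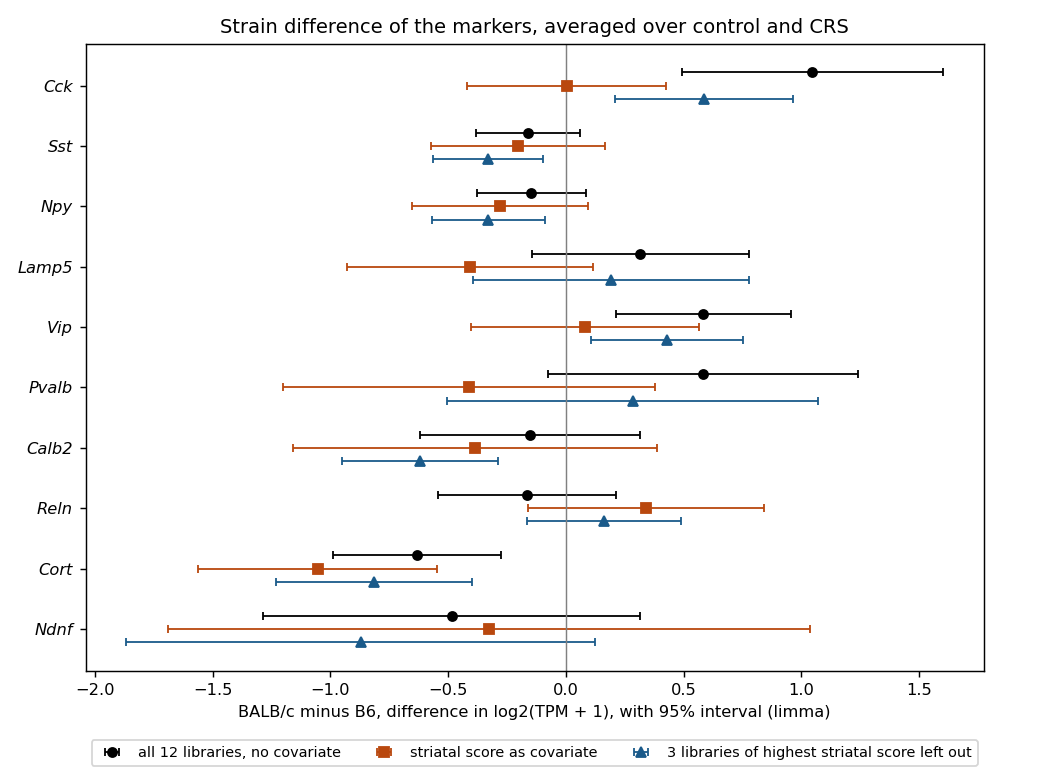
Log2 difference between BALB/c and B6 for each of the 10 markers (horizontal axis, positive higher in BALB/c) with its 95% interval, averaged over treatments, from all 12 libraries (black), with the striatal score as a covariate (orange) and without the 3 libraries of highest score (blue). In black, Cck (1.05) and Vip (0.58) lie to the right and Cort (-0.63) to the left of 0 with intervals that leave it out and the other 7 intervals cross it, while in orange Cck is at 0.00 and Cort at -1.05.

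None of the 10 members was called by limma between CRS and control libraries, in B6, in BALB/c or over both strains, where 0%, 0.00609% and 0.00609% of all genes were. At an unadjusted p under 0.05 there was 1 of 10 in B6 (Ndnf), 0 of 10 in BALB/c and 1 of 10 over both strains (Ndnf), against 4.82%, 3.03% and 5.17% of all genes. Ndnf was 5.16 ± 2.47 TPM in B6 controls and 14.4 ± 9.19 TPM in B6 CRS (SD, n = 3 each), with each CRS library above each control. Its log2 difference in B6 was 1.26 (SE 0.52, limma adjusted p = 1) and without B6 CRS 14 it was 0.80. In BALB/c its groups overlapped, at 4.66 ± 1.24 and 7.53 ± 4.94 TPM, with a log2 difference of 0.39. By library left out, that difference ran from -0.02 without BALB/c CRS 15 to 0.998 without BALB/c CRS 12 (limma adjusted p = 0.684 for the latter). Calb2 went from 14.6 ± 2.89 to 24.9 ± 15.6 TPM in B6 (log2 0.59, SE 0.30, limma adjusted p = 1), and without B6 CRS 14, the only CRS library of B6 above the control range, the difference was 0.13.

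Pvalb was lower in all 3 BALB/c CRS libraries than in the 3 controls, at 26.8 ± 4.60 against 39.1 ± 7.07 TPM, but was not called (log2 -0.53, SE 0.43, limma adjusted p = 1). It was the 1 of 10 members lower without overlap in BALB/c, as were 2.02% of all genes, and Ndnf was the 1 of 10 higher without overlap in B6, as were 4.63%. In B6 the Pvalb difference was -0.59 with B6 control 9 and 0.10 without it. Averaged over strains, the intervals of the CRS difference were narrowest for Sst (log2 0.05, 95% interval -0.17 to 0.27) and Npy (-0.06, -0.29 to 0.17). They were wider for Vip (0.02, -0.35 to 0.39) and widest for Ndnf (0.82, 0.02 to 1.62) and Pvalb (-0.56, -1.22 to 0.10). The striatal score was also higher in each B6 CRS library than in 2 of the 3 B6 controls, and with it as a covariate the B6 differences were 1.17 for Ndnf, 0.72 for Calb2, -0.04 for Pvalb and 0.12 for Cck (-0.45 without it). Without the 3 libraries of highest score, which leaves B6 CRS 14 alone in its group, they were 2.31 for Ndnf, 1.49 for Calb2, -0.81 for Pvalb and -0.35 for Cck, with limma adjusted p from 0.102 to 0.934.

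The response to CRS differed between strains for none of the 10 members by limma's interaction term, called for 0% of all genes. The count at an unadjusted p under 0.05 was 0 of 10, against 2.7% of all genes. The lowest p was that of Cort, whose mean was 22.3 ± 4.22 TPM in B6 controls and 19.4 ± 4.44 in B6 CRS, and 11.3 ± 3.42 in BALB/c controls and 15.2 ± 2.98 TPM in BALB/c CRS libraries (SD, n = 3 each). Its interaction was 0.62 on the log2 scale (SE 0.33, limma adjusted p = 1).

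**Figure D4:**
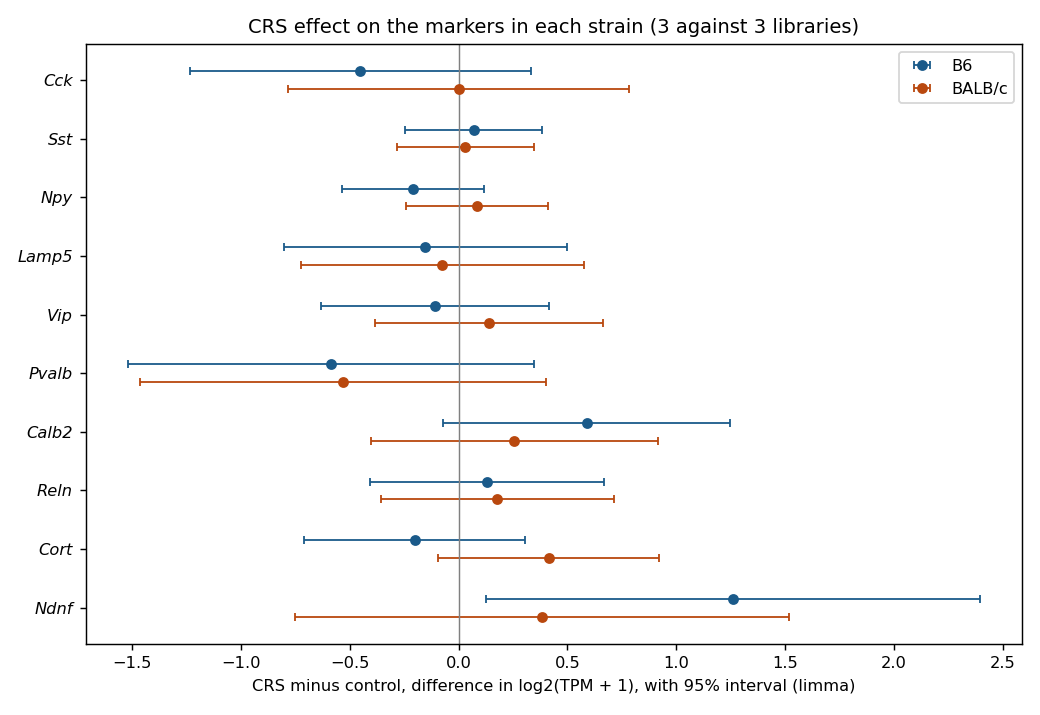
Log2 difference between CRS and control libraries for each marker, in B6 and in BALB/c, with 95% intervals from limma. The interval of Ndnf in B6 (0.13 to 2.39) leaves out 0 before adjustment for the number of genes, and the other intervals cross 0.

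The genes that work with the members were taken as lists by function, described here by counts over the strain contrast averaged over treatments. Of 10 genes of GABA synthesis, transport and general GABAergic identity, 5 were called lower in BALB/c and 0 higher, beside 14.3% of all genes called lower, with a median log2 difference of -0.75 against -0.08 over all genes. Those with the lowest p were Slc32a1, the vesicular GABA transporter (-0.87, limma adjusted p = 0.0160), the homeobox genes Dlx5 (-1.08, 0.0176) and Dlx6 (-1.15, 0.0177), and Gad2, a GABA-synthesising enzyme (-0.75, 0.0225). Striatal projection neurons are themselves GABAergic and express these genes. The summed level of the list was 400 to 566 TPM in B6 controls, 497 to 790 in B6 CRS, 328 to 384 in BALB/c controls and 304 to 498 TPM in BALB/c CRS libraries, and 0 of the 10 were called with the striatal score as a covariate. The 5 called genes of this list were thus lower in BALB/c over the same libraries in which Cck and Vip were higher.

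Of 12 tested genes of the interneuron lineages 3 were called, all higher in BALB/c, beside 18.4% of all genes called and 4.05% called higher. Of 6 tested genes of the medial ganglionic eminence lineage, Satb1 was the 1 called, higher in BALB/c (log2 0.46, limma adjusted p = 0.0195). Of 6 genes of the caudal lineage, which gives rise to Vip and Lamp5 cells, 2 were called higher: Npas1, a transcription factor, at 4.13 to 8.32 TPM in B6 and 9.07 to 15.3 TPM in BALB/c (log2 0.94, SE 0.12, limma adjusted p = 0.000289), and Adarb2 (0.67, 0.0180). The Npas1 strains did not overlap. With the striatal score as a covariate Npas1 was 0.56 (limma adjusted p = 0.090) and Adarb2 0.45 (0.449). Without the 3 libraries of highest score Npas1 was 0.73.

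Among further genes of single classes, where 18.4% of all genes were called, 1 of 8 tested Pvalb cell genes was called, and it was lower: Cox6a2, a subunit of mitochondrial cytochrome c oxidase. Cox6a2 was at 8.52 to 16.6 TPM in the 6 B6 libraries and 3.63 to 6.00 TPM in the 6 BALB/c libraries, with no overlap, and its log2 difference of -1.10 (SE 0.16, limma adjusted p = 0.000732) ran opposite in sign to that of Pvalb. The Pvalb difference (0.58) was itself not called. With the striatal score as a covariate Cox6a2 was -1.34 (limma adjusted p = 0.0140), and Pvalb was then negative too (-0.41). Of 8 tested Sst cell genes, Myh8 was the 1 called (0.62, limma adjusted p = 0.00898), and of 9 tested Vip, Lamp5 and Sncg cell genes, Igfbp6, a binding protein of insulin-like growth factors, was the 1 called, at 23.2 to 66.0 TPM in B6 and 60.4 to 82.5 TPM in BALB/c (log2 1.12, SE 0.20, limma adjusted p = 0.00276). Igfbp6 was highest among B6 libraries in control 9, as Cck was, and was 0.35 (limma adjusted p = 0.377) with the striatal score as a covariate.

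Of the receptors for the members' peptides, 10 of 13 were tested, and 4 were called higher in BALB/c and 0 lower, with a median log2 difference of 0.27, beside 4.05% of all genes called higher and a median of -0.08 over all genes. Cckbr, the main cholecystokinin receptor of the brain, was at 22.8 to 52.2 TPM in B6 and 48.5 to 56.4 TPM in BALB/c (0.68, limma adjusted p = 0.0135), so that ligand and receptor of this pair were both higher. Vipr1, a receptor for Vip, was at 6.66 to 12.4 TPM in B6 and 12.7 to 17.8 TPM in BALB/c (0.70, limma adjusted p = 0.00541). Sstr2, a receptor shared by somatostatin and cortistatin, differed by 0.62 (limma adjusted p = 0.0285) and Npy1r by 0.68 (0.0402). With the striatal score as a covariate none of the 4 was called, at 0.02 for Cckbr, 0.23 for Vipr1, 0.12 for Sstr2 and -0.07 for Npy1r. Without the 3 libraries of highest score Cckbr was 0.49.

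Peptides such as Sst, Npy, Vip and Cck are cut from precursors and stored in secretory granules. Of 11 genes of that machinery, 1 was called higher and 2 lower in BALB/c, beside 4.05% and 14.3% of all genes. Scg5, the chaperone of the precursor-cutting enzyme Pcsk2, was at 188 to 263 TPM in the 6 B6 libraries and 438 to 518 TPM in the 6 BALB/c libraries, with a log2 difference of 1.13 (SE 0.08, limma adjusted p = 1.4e-06). It was 0.94 (limma adjusted p = 0.000496) with the striatal score as a covariate and 1.10 without the 3 libraries of highest score. Cpe, which trims the cut peptides, was lower by a log2 difference of -0.33 (limma adjusted p = 0.00525), and Scg2, a granule protein, by -0.37 (0.0338). Of 8 genes of reelin signalling, 1 was called, beside 18.4% of all genes: Vldlr, a reelin receptor, was lower (-0.40, limma adjusted p = 0.0347). No gene of these lists was called in any CRS contrast or in the interaction.

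**Figure D5:**
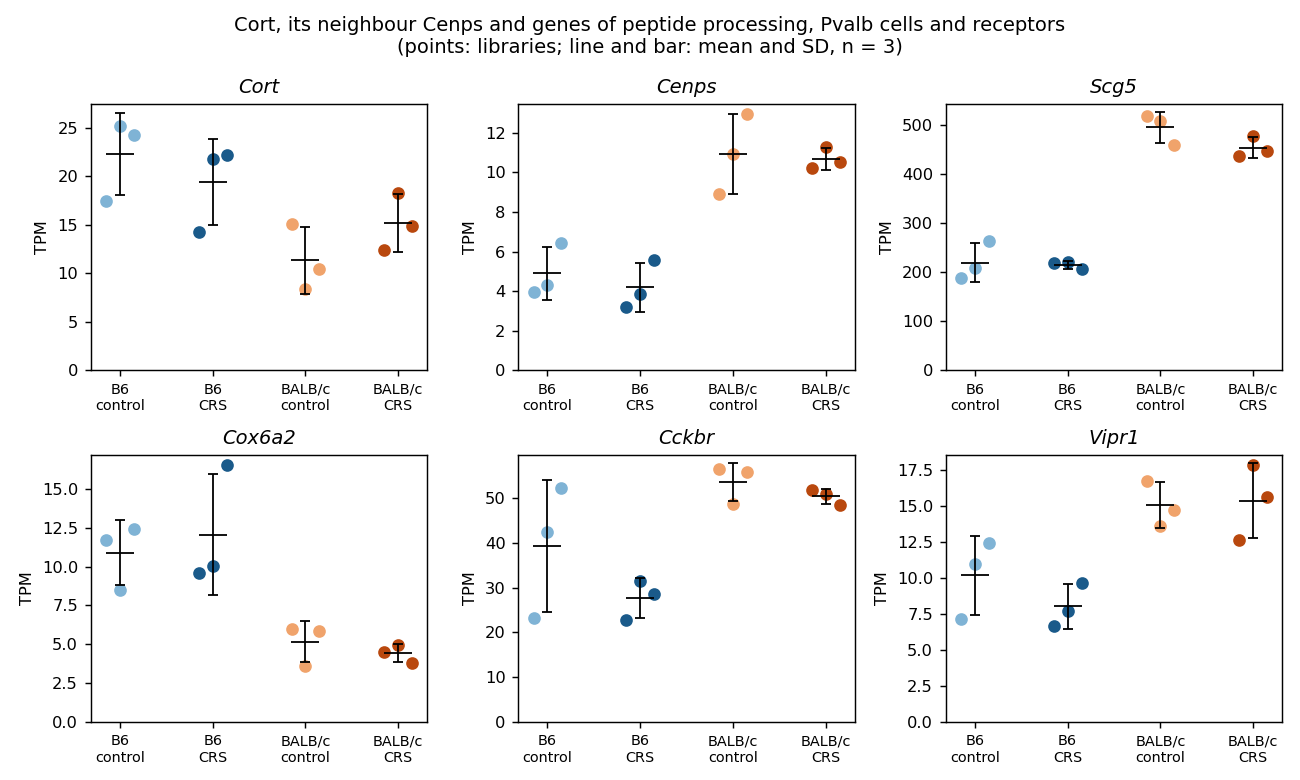
Levels in TPM (vertical axes) of Cort, its neighbour Cenps and the partner genes Scg5, Cox6a2, Cckbr and Vipr1 in the 4 groups, with a point per library, a line for each mean and a bar for the SD of 3. Cenps, Scg5 and Vipr1 are higher and Cox6a2 is lower in all BALB/c than in all B6 libraries, while Cort and Cckbr overlap between strains.

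Several members ran together over the libraries. As a description over the 12 libraries, which share their tissue composition, the Pearson correlation of log2(TPM + 1) was 0.88 between Cck and Vip, 0.79 between Pvalb and Lamp5, 0.77 between Ndnf and Calb2 and 0.73 between Sst and Npy. Cck also correlated at 0.73 with Lamp5 and 0.71 with Pvalb, and Vip at 0.59 with Lamp5. The highest positive value of Cort with another member was 0.55 (Npy). That of Reln was 0.15 (Ndnf), and Reln ran opposite to Pvalb (-0.69). The Ndnf and Calb2 pair shares its highest library, B6 CRS 14, and the Pvalb and Lamp5 pair shares B6 control 9. Among 13637 other tested genes, genes close in pattern were Rtn4r and Dkkl1 to Cck (both 0.98), C1ql3 (0.98) and C2cd4c (0.95) to Vip, Hmgn3 (0.93) and Pabpc5 (0.92) to Cort, Timm13 (0.93) and Shcbp1l (0.92) to Sst, and Nup188 (0.93) and Cryba4 (0.90) to Npy. For the other members they were Sema7a and Nrgn (both 0.96) to Pvalb, Dmtn (0.94) to Lamp5, Arl4a (0.95) and AU020206 (0.94) to Ndnf, Faap20 (0.94) and Mageh1 (0.93) to Calb2, and Klf5 (0.89) and Htr1b (0.88) to Reln.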

How the data were processed

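RNA sequencing of the medial prefrontal cortex gave 12 libraries in 4 groups of 3, named from the sample titles. Per the labels' protocols, RNA was extracted with TRIzol and stranded poly(A) libraries were read as paired 150 bp ends. Per the submitters' processing notes, cutadapt 2.9, Salmon and the build GRCm38 were used; the annotation and the strand setting are not given in the sources used here. The values deposited by the authors were read as TPM, corrected for length and scaled by them so that each column sums to 1000000; neither header nor labels name the unit. The table has 147902 rows, apparently 1 per transcript. Read depth is unknown from such values, so no counting interval is given.

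Rows were summed per gene name. Levels were tested as log2(TPM + 1), with limma 3.58.1 in R 4.3.3, for the 16423 genes that reached 1 TPM in 3 or more libraries. The model had the 4 group means, 8 residual degrees of freedom and a variance trend, and 7 contrasts, two-sided. P-values were adjusted by Benjamini-Hochberg over all genes tested and called under 0.05. The script was tested on simulated data. Alternatives were another pseudocount, other filters, other scalings, the highest single row per gene, no variance trend, marker scores as covariates, the replicate number as a block and leaving out each library. The members and the 19 gene lists were chosen with earlier results of these data known. From each list at most 4 called genes are named, by lowest adjusted p, and for each member the 2 genes closest by Pearson correlation; some genes these rules select are not reported here. Sequences came from the RefSeq promoter table, and other positions from GENCODE M21.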

Additional observations from a re-analysis of the deposited data

How the results depend on the processing

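The counts of members called for CRS in B6, in BALB/c and over both strains, and for the interaction, were 0 under every setting run, as in the report. The count for the strain contrast over both treatments (3) was 0 with the myelin score, 1 with the striatal score and 1 to 5 when each library was left out in turn. For controls (1) it was 0 with the myelin score, 0 with no filter and 0 to 1 by library left out, and among CRS libraries (0) it was 1 with median-of-ratios scaling, 1 after rescaling without mitochondrial transcripts, ribosomal RNA and Bc1, 1 without the 3 libraries of highest striatal score (a setting chosen after seeing the data) and 0 to 2 by library left out. Over all genes the called counts moved with composition most: the averaged strain contrast gave 3021, and 1929 at a mean of at least 5 TPM, 373 with the myelin score, 506 with the striatal score, 1043 without those 3 libraries and 1975 to 3787 by library left out. In the same order of settings the contrast among CRS libraries gave 1264, and 702, 256, 233, 365 and 539 to 1852 (750 with the replicate block), and that among controls 777, and 437, 284, 507, 424 and 428 to 1389. The CRS contrasts and the interaction gave 0 to 11 genes under any setting. Signs turned, among differences larger than their SE, as follows. With the striatal score, Cck was -0.13 and Lamp5 -0.62 and Pvalb -0.73 between strains under CRS, Lamp5 -0.41 and Pvalb -0.41 averaged, Pvalb -0.095 in controls and Cck 0.12 for CRS in B6. With the myelin score, Lamp5 was -0.25 and Pvalb -0.052 under CRS, Lamp5 -0.27 and Pvalb -0.066 averaged and Pvalb -0.080 in controls. Without the 3 libraries, Npy was 0.17 for CRS in B6 and -0.080 in the interaction. By library left out, Calb2 between strains under CRS ran from -0.58 to 0.14 (without B6 CRS 14) and Pvalb for CRS in B6 from -0.996 to 0.10 (without B6 control 9). Replicate numbers 9, 12 and 13 recur across groups, but deviations of the same-numbered libraries correlated at -0.24, -0.03 and -0.04, so the number was not taken as a pairing; with it as a replicate block the 3 averaged calls stayed called (limma adjusted p = 0.033 for Cck, 0.043 for Vip and 0.025 for Cort) and Npy for CRS in B6 was 0.018. TPM keep no read depth, so the counting error of low members such as Ndnf is unknown. The cause of these shifts was not tested.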

Other observations

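The members differ in how many transcripts make up their summed value. Sst, Npy and Cort had 1 row each, Cck had 6, Lamp5 5 and Reln 15, and for 10 of 10 members the number of rows equalled the number of transcripts in GENCODE M21. The most abundant row carried 89.7 to 94.9% of Cck in the 12 libraries and 97.0 to 99.3% of Vip. For Pvalb it carried 54.6 to 89.8%, for Reln 30.4 to 68.0% and for Ndnf 0 to 70.1%.

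Cort was not the only member with a neighbour that differed between strains. Of the nearest measured genes on both sides of the 10 members, named here after their values were seen, Ift27 beside Pvalb (log2 -0.37, limma adjusted p = 0.0214), Gsdme beside Npy (-0.32, 0.0240) and Hpgds beside Ndnf (-0.71, 0.00277) were called lower in BALB/c. The neighbours of Cck, Trak1 (0.12, limma adjusted p = 0.573) and Lyzl4 (0.44, 0.248), and those of Vip, Syne1 (0.01, 0.971) and Fbxo5 (-0.51, 0.144), were not called.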
